A study of Mus musculus with 6 samples.

Results

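Cyclophilin D and the carrier and channel proteins long linked with it were followed in cultured marrow mesenchymal stem cells of C57BL/6 mice. The 7 genes are Ppif, Vdac1, Vdac2, Vdac3, Slc25a4, Slc25a5 and Tspo, and all 7 were found by symbol among the 23358 rows of the deposited gene count table. Ppif was chosen because it is among the largest decreases of the series, so its difference between the groups is described here without a test. The other 6 genes were chosen because their products are the classical partners of cyclophilin D.

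The comparison was between 2 groups of cells, 3 libraries with a non-targeting control siRNA and 3 with an siRNA against Dia2 (mDia2), the formin encoded by Diaph3, given at 50 nM. Both groups were at passage 6 to 12, adhered for 24 h, were transfected overnight with the same lipid reagent, and were collected 24 h after the medium had been exchanged. The knockdown is transient and the cells were not sorted, and nothing in the labels ties the 3 libraries of a group to separate cultures. The p-values therefore measure only how these libraries scatter, which may be technical variation. In such bulk RNA, fewer cells of a type and less RNA per cell cannot be told apart.

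The permeability transition pore is a large channel that opens in the inner mitochondrial membrane under calcium overload and oxidative stress and collapses the membrane potential. Cyclophilin D, the product of Ppif, is a proline isomerase of the matrix that lowers the threshold for opening and is the target through which cyclosporin A delays it. The adenine nucleotide carriers (Slc25a4 and Slc25a5) exchange ADP for ATP across the inner membrane, the porins (Vdac1, Vdac2 and Vdac3) let metabolites cross the outer membrane, and Tspo is a cholesterol-binding protein of the outer membrane. Carriers and ATP synthase are both candidates for the pore itself, whereas it still opens in mitochondria that lack porins or Tspo.

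Counts per library summed to between 70538768 and 110006338, and every deposited count was even. CPM values (counts scaled by library total and TMM factor) are used below, and 6 counts, or 3 fragments if each added 2, correspond to between 0.0534 and 0.087 CPM. The ribosomal precursor Rn45s held 6% to 11.7% of the counts, with its high values in control replicate 3 and Dia2 replicate 1. Diaph3 stood at 80.1 to 84.8 CPM in the control and 7.39 to 8.37 CPM in the Dia2 libraries. Of 11 mesenchymal markers tested, 10 were higher with Dia2 siRNA and none lower, beside 29.3% higher and 29.9% lower over all genes. The list summed to 2910 to 3210 against 5270 to 5340 CPM, but Thy1 lay at or near 0 in both groups. The largest terms of this sum were Itgb1 (means of 1430 and 1830 CPM) and Cxcl12 (815 and 2100 CPM). Of 5 blood and macrophage markers tested 4 were lower, at a summed 20.3 to 22.1 against 12.2 to 13.3 CPM, with the defining Ptprc at 8 counts or fewer and Tyrobp at 0.

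Among the sequences available from RefSeq and GENCODE, those for the genes on which the results turn are shown here. The start region of Ppif (GRCm38.p6, plus strand, chr14:25693920-25694219) is shown because its RNA differed most, and those of Slc25a4 (minus strand, chr8:46211013-46211312) and Slc25a5 (plus strand, chrX:36795347-36795646) because this pair of carriers moved in opposite directions. Each runs from 250 bases before to 50 bases after an annotated RefSeq start. Capitals mark, on either strand, the ETS family core CCGGAAG, the CCAAT box CCAAT, the GC box GGGCGG, the NRF1 core GCGCATGCG and the TATA-like word ATATAAG, which was added after the 2 carrier sequences had been read.
Ppif: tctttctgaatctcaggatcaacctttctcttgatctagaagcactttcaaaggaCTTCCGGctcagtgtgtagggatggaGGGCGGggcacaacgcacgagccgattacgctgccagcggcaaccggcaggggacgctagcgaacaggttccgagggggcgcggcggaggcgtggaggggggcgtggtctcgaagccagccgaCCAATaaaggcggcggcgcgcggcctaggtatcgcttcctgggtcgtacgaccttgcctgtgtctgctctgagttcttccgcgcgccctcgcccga
Slc25a4: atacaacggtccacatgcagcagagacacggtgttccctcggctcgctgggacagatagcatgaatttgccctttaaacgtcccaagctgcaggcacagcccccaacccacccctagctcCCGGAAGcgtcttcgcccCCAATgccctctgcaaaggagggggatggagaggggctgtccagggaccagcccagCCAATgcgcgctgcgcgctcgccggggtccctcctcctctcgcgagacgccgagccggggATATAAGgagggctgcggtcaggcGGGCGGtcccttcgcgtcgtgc
Slc25a5: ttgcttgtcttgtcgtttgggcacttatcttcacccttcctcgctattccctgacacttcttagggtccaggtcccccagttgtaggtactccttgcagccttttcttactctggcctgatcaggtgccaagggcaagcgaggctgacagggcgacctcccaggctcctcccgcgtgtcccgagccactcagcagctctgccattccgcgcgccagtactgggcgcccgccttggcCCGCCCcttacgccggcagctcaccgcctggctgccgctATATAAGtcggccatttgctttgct

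The ETS core occurred once in the Ppif window, on the minus strand, and once in that of Slc25a4, and it is found in 8.86% of 32851 RefSeq start regions of this length. A CCAAT box stood once before the start of Ppif and 2 times before that of Slc25a4, against 37.4% of all regions with at least 1. All 3 windows held 1 GC box, as do 35.7% of regions with at least 1. The TATA-like word was present in both carrier windows and not in that of Ppif (2.52% of regions), and the NRF1 core in none of the 3 (1.75% of regions). These matches describe letters only. RefSeq start regions were matched for 4 of the 7 genes.

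Ppif was far lower in all 3 Dia2 libraries. It lies on chromosome 14 (25694170 to 25700466 in the table, GRCm38, plus strand) with 6 exons in transcript Ppif-201. Its level was 30.5, 29.2 and 29.2 CPM in control replicates 1, 2 and 3 and 4.01, 4.29 and 3.93 CPM in Dia2 replicates 1, 2 and 3. The groups stood far apart, and the libraries within each group lay close together. The means were 29.7 ± 0.76 and 4.08 ± 0.188 CPM (SD, n = 3), that is 7.27-fold lower, or -86.2%, with a log2 fold change of -2.86 ± 0.07 (SE). Among the 11007 genes with a mean of at least 2 CPM this was the decrease ranked 4, between the clone-named 5330437I02Rik at -3.02 and Prl2c3 at -2.82 on the log2 scale. These values chose the gene and support nothing further.

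**Figure D1:**
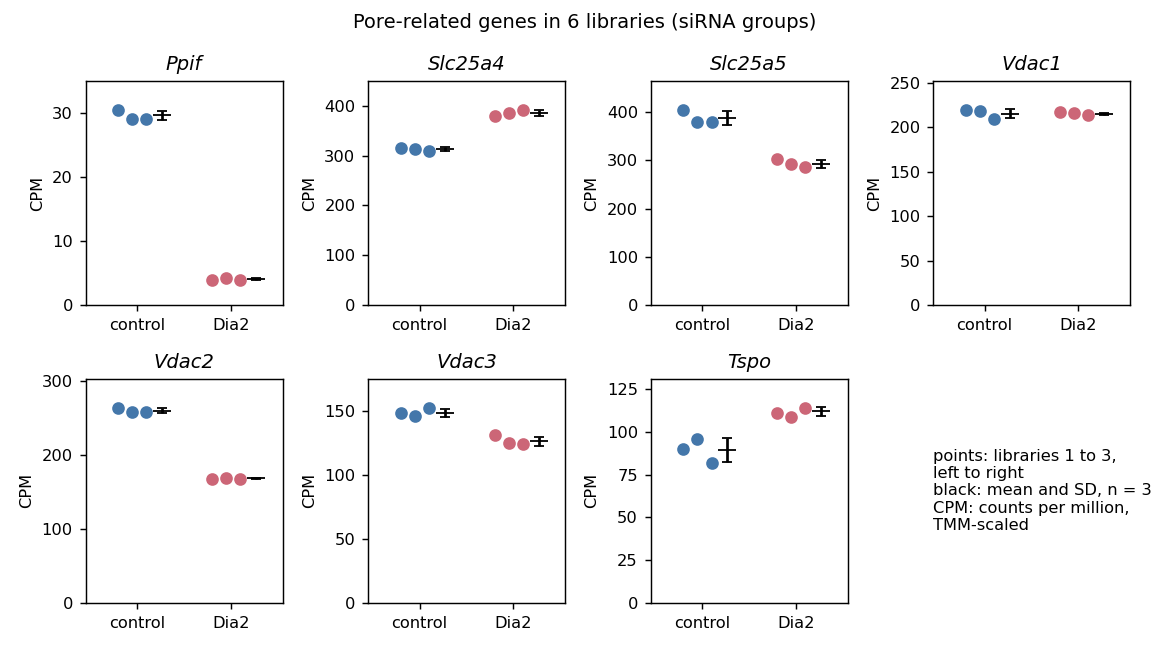
Expression of the 7 genes in each library, in TMM-scaled CPM on a linear axis from 0; points are libraries, black marks the mean and SD of 3. Ppif separates the groups widely (29.7 against 4.08 CPM), Vdac1 does not separate them, and Slc25a4 and Slc25a5 move in opposite directions.

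An antisense transcript crosses the 3′ end of the gene. Ppifos runs on the opposite strand, and 152 bases, or 9.81% of the exon bases of Ppif-201, are shared with its exons. The table does not say whether counting used strand, so reads there cannot be told apart. Ppifos itself was scarce, at 0.872, 0.925 and 1.02 CPM in the control and 0.824, 0.854 and 1.24 CPM in the Dia2 libraries, with overlapping groups (log2 fold change 0.06 ± 0.22, edgeR adjusted p = 0.821). The 3 other neighbours examined on this stretch of chromosome 14 were named after their values were seen. Zcchc24, the next protein-coding gene, rose from 225 ± 5.91 to 274 ± 1.41 CPM (0.29 on the log2 scale, adjusted p = 0.000101). The Anxa11 log2 fold change was -0.22 (adjusted p = 0.0106), and its call was lost without control replicate 2 (-0.18, adjusted p = 0.0625) or Dia2 replicate 2 (-0.19, adjusted p = 0.0616). The Zmiz1 log2 fold change was -0.09 (adjusted p = 0.219), and it passed without control replicate 3 (-0.15, adjusted p = 0.00145).

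The 5 genes whose profile over the 6 libraries lay nearest to that of Ppif, by root mean square distance of centred log2 values among 11006 genes, were Acsl4 (0.119), Mrap (0.129), Rgs16 (0.149), Rbm47 (0.166) and Lmnb1 (0.207). Acsl4 activates arachidonic acid, Mrap is an accessory protein of melanocortin receptors, Rgs16 regulates G-protein signalling, Rbm47 binds RNA and Lmnb1 encodes lamin B1. Their levels span a wide range. Acsl4 stood at 274 CPM in the control and 39.4 CPM in the Dia2 libraries, whereas Rgs16, the scarcest of the 5, stood at 14.5 and 1.54 CPM. With 2 groups of libraries this measure mainly finds genes with a similar fold difference.

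**Figure D2:**
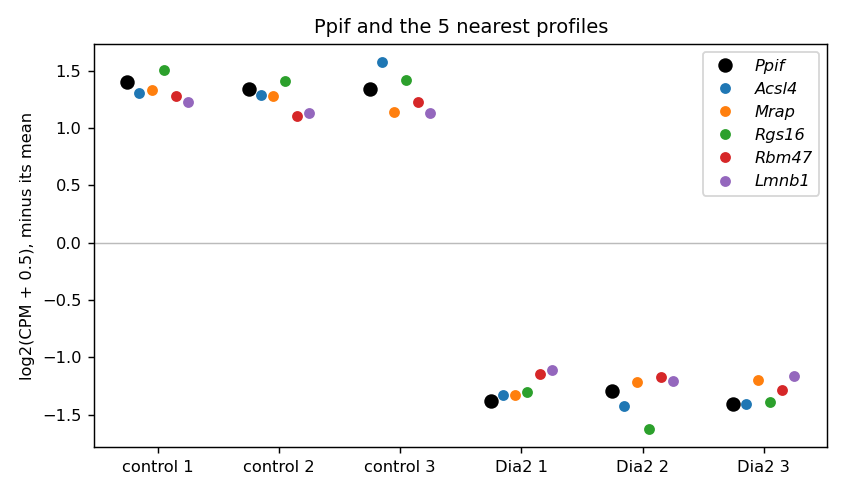
Profiles of Ppif and of its 5 nearest genes; each point is 1 library, the y axis is log2(CPM + 0.5) minus the gene's mean over 6 libraries. All 6 genes lie above 0 in the control and below 0 in the Dia2 libraries.

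The 3′ UTR of Ppif-201 holds the 7-base word ATGTGAA once, at base 668 of 866. This word and the overlapping TATGTGA had been picked earlier from the genes that fell in these same libraries, Ppif among them, so their presence is a description. At least 1 of them occurs in the longest annotated 3′ UTR of 23.5% of 12085 tested genes and in all 5 genes nearest to Ppif. It occurs in none of the other 6 genes, whose 3′ UTRs are 245 to 874 bases long, against 377 to 2684 in the nearest genes. The nearest genes also fell in these libraries (log2 fold change -3.24 to -2.34), so the words in them are a description too. The sites in Ppif and in the nearest genes are shown 5′ to 3′ with the word in capitals (GRCm38, GENCODE M21), except Lmnb1. Rbm47 holds both words, and 1 site is shown.
Ppif, chr14:25700259-25700287, plus strand: ctttctgctcaATGTGAAttcccgtggtg
Acsl4, chrX:142318998-142319026, minus strand: ccctgaagttaTATGTGAgtattctcatg
Mrap, chr16:90749754-90749782, plus strand: aggaaaataaaATGTGAAttaggataaag
Rgs16, chr1:153745374-153745402, plus strand: tatcagcagtgTATGTGAtcactgttttt
Rbm47, chr5:66017956-66017984, minus strand: gaccaagaatgTATGTGAttatagacaag

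None of 1679 mature mouse miRNAs listed in RefSeq pairs with either whole word through bases 2 to 8. Pairing through fewer bases, or offset against these words, was not searched, so other kinds of miRNA site may be present. The word that pairs with bases 2 to 8 of the antisense strand of the Dia2 siRNA, AACTTAA, is present in 13.1% of the tested 3′ UTRs and in 0 of the 7 genes. Of the 5 genes nearest to Ppif, 1 holds it (Rbm47). The longest run that the coding transcripts of the 7 genes share with the 25-base siRNA, on either strand, is 7 bases.

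Of the 6 partner genes, 5 passed an adjusted p of 0.05, 2 of them higher and 3 lower with Dia2 siRNA. Over all 14151 genes tested 59.2% passed, 29.3% higher and 29.9% lower, so a count of 5 in 6 is read against a background in which a call is common. The groups did not overlap for 5 of the partners and for Ppif, against 64.5% of all genes. The partners' differences were small, all within 1.55-fold, and their median log2 fold change was -0.11 beside 0.0053 for all tested genes. The calls of these 5 partners held in all 17 alternative fits.

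**Figure D3:**
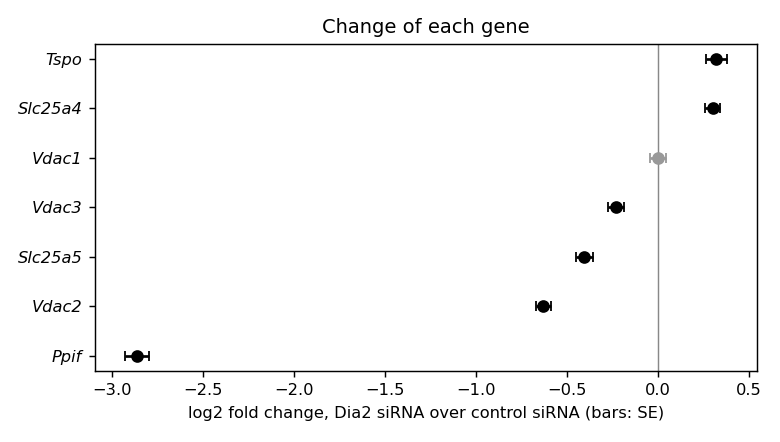
Log2 fold change of each gene, Dia2 siRNA over control siRNA, with its SE from edgeR; grey marks the gene that did not pass. Ppif lies at -2.86, and the other 6 lie between -0.63 and 0.32.

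The 2 adenine nucleotide carriers changed in opposite directions. Slc25a4 encodes the isoform that prevails in heart and skeletal muscle, and Slc25a5 the isoform typical of dividing cells. Slc25a4 (chromosome 8, 46207341 to 46211009, minus strand, 4 exons) stood at 315, 314 and 309 CPM in the control and 379, 386 and 391 CPM in the Dia2 libraries. Every Dia2 library lay above every control library. The mean rose from 313 ± 3.45 to 386 ± 5.87 CPM (log2 fold change 0.30 ± 0.04, edgeR adjusted p = 6.73e-05), or 23.2%.

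Slc25a5 (chromosome X, 36795652 to 36798806, plus strand, 4 exons) stood at 404, 380 and 380 CPM in the control and 302, 292 and 287 CPM in the Dia2 libraries. Here every Dia2 library lay below every control library. The mean fell from 388 ± 14.3 to 293 ± 7.64 CPM (-0.40 ± 0.05, adjusted p = 1.38e-05), or 1.32-fold. Slc25a31, a further carrier of the same kind known from testis, had 2 counts in Dia2 replicate 1 and 0 in the other 5 libraries, below the floor of 6 counts.

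Per length, the order of the pair was exchanged between the groups. RPKM, the deposited level per gene length and library total, gave Slc25a5 284, 269 and 249 and Slc25a4 248, 249 and 227 in control replicates 1, 2 and 3. In the Dia2 libraries Slc25a5 had 193, 198 and 199 RPKM and Slc25a4 271, 293 and 304 RPKM. Slc25a5 was thus the higher of the pair in 3 of 3 control libraries, although its range over them overlapped that of Slc25a4, and Slc25a4 was clearly the higher in 3 of 3 Dia2 libraries. The ratio of Slc25a4 to Slc25a5 RPKM was 0.873, 0.927 and 0.911 in the control libraries, against 1.41, 1.48 and 1.53 with Dia2 siRNA. The log2 ratio differed by 0.70 without overlap (exact two-sided permutation p = 0.1, the smallest this test can give for 3 against 3; adjusted p = 0.1 over 4 such tests).

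The summed level of both carriers hardly differed. In TMM-scaled CPM per kilobase it was 612, 591 and 586 with control siRNA, against 587, 585 and 585 with Dia2 siRNA, a difference of -1.78% in the mean, and the groups overlapped. That the ratio passes 1 depends on the deposited lengths, 1106 bases for Slc25a4 and 1238 for Slc25a5, whereas its difference between groups does not. The deposited model of Slc25a4 is shorter than the 1925 bases of Slc25a4-201 in GENCODE. Read sharing between the 2 genes is limited by sequence, since the longest run identical in their coding transcripts is 20 bases. Slc25a5 does share 46.6% of its 50-base windows with transcripts of other genes, led by the locus Gm5560, while Slc25a4, Ppif and Tspo share 0. The read length is not stated, so the window length was a choice, and only annotated transcripts were searched, in their own direction. These shares therefore do not measure how many reads matched several places. No source used here gives how reads with several matches were counted, and its part in the decrease of Slc25a5 was not tested.

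Muscle markers were examined beside Slc25a4. Of 10 listed genes 4 (Myh2, Myh6, Myod1 and Myog) were at 0 in every library and 3 could be tested, of which Acta1, a skeletal muscle actin, rose from 5.39 ± 0.704 to 8.37 ± 1.05 CPM. The list summed to 6.21 to 7.69 CPM in the control and 8.62 to 11.8 CPM in the Dia2 libraries, far below the level of Slc25a4, and its part in the rise was not tested.

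**Figure D4:**
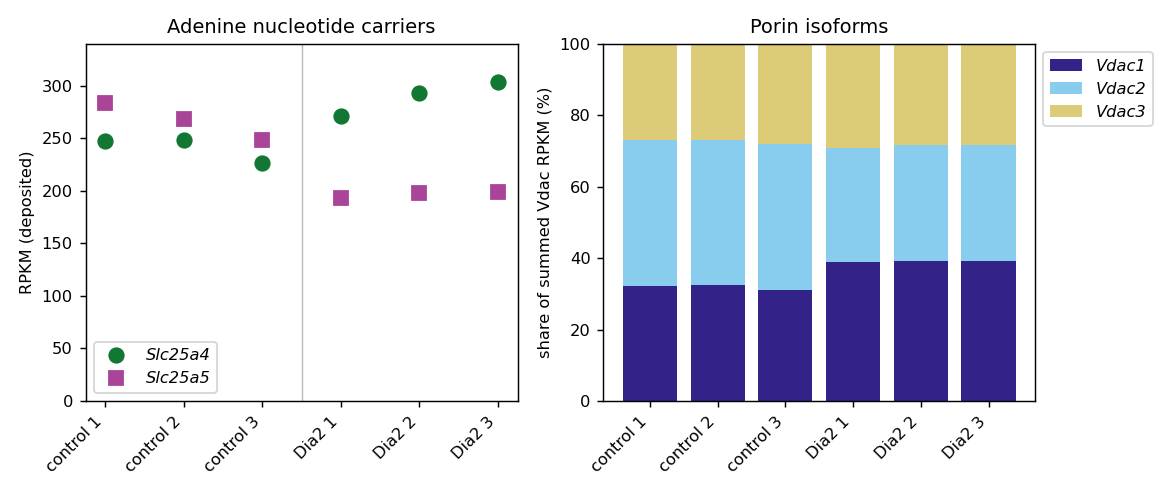
Left, deposited RPKM of Slc25a4 and Slc25a5 in each library; right, share of each porin in the summed RPKM of the 3 porins, in percent. Slc25a5 lies above Slc25a4 in the 3 control libraries and below it in the 3 Dia2 libraries, and the share of Vdac2 is 40.8% on average in the control and 32.4% in the Dia2 libraries.

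Of the 3 porins Vdac2 fell most, Vdac3 fell slightly and Vdac1 did not pass. Vdac2, which also retains the death effector Bak at the outer membrane, lies on chromosome 14 (21831561 to 21845879, plus strand, 10 exons). It stood at 263, 257 and 258 CPM in the control and 167, 168 and 167 CPM in the Dia2 libraries. The groups were far apart beside a spread of a few CPM within each. Its mean fell from 259 ± 3.3 to 168 ± 0.501 CPM (log2 fold change -0.63 ± 0.04, edgeR adjusted p = 1.08e-07), or 1.55-fold.

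Vdac3 (chromosome 8, 22577075 to 22593813, minus strand, 9 exons), the porin with the weakest channel activity in reconstituted membranes, stood at 148, 146 and 152 CPM in the control and 131, 125 and 124 CPM in the Dia2 libraries. The groups did not overlap, and the mean fell from 148 ± 3.2 to 126 ± 3.69 CPM (-0.23 ± 0.04, adjusted p = 0.000579). Of its 50-base windows 47.5% also occur in transcripts of other genes, mostly the pseudogene Vdac3-ps1, against 10.3% for Vdac2 and 1.88% for Vdac1. The part of such reads in the decrease of Vdac3 was not tested.

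Vdac1, the most studied porin and a docking site for hexokinase (chromosome 11, 52361115 to 52389396, plus strand, 9 exons), stood at 219, 218 and 209 CPM in the control and 217, 216 and 214 CPM in the Dia2 libraries. The groups overlapped, with means of 215 ± 5.23 and 215 ± 1.36 CPM. The log2 fold change was 0.0020 ± 0.04 (adjusted p = 0.972), and alternative fits gave -0.02 to 0.04.

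The composition of porin RNA differed accordingly. Vdac2 made up 41%, 40.7% and 40.8% of the summed RPKM of the 3 porins with control siRNA, against 32%, 32.5% and 32.6% with Dia2 siRNA. Vdac1 made up 32.1%, 32.4% and 31.1% and then 38.9%, 39.3% and 39.2%, which placed it above Vdac2 in the Dia2 libraries. Vdac3 differed least, from 27.3% ± 0.688 to 28.5% ± 0.545 (SD, n = 3 each). The shares of all 3 did not overlap between groups, and each gave the smallest exact permutation p of 0.1 (two-sided; adjusted p = 0.1). The summed level of the porins was 386, 381 and 380 CPM per kilobase with control siRNA, against 315, 311 and 309 with Dia2 siRNA, a difference of -18.4%, unlike that of the carriers.

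Tspo was higher with Dia2 siRNA. The gene (chromosome 15, 83563573 to 83574203, plus strand, 4 exons) stood at 90, 95.9 and 81.9 CPM in the control and 111, 109 and 114 CPM in the Dia2 libraries. The control libraries were the more spread, and control replicate 3 was the lowest. The mean rose from 89.3 ± 7.02 to 112 ± 2.49 CPM (0.32 ± 0.06, edgeR adjusted p = 0.000362), or 25.1%. Macrophages are rich in Tspo, and the blood and macrophage markers summed to 20.3 to 22.1 CPM in the control and 12.2 to 13.3 CPM in the Dia2 libraries. The largest term of this sum was Cd14, with means of 10 and 6.79 CPM. Of the 5 markers tested 4 were lower, and Csf1r did not pass (2.92 and 3 CPM, edgeR adjusted p = 0.877). The part of macrophages in the result was not tested. Leaving out control replicate 3 and Dia2 replicate 1, the libraries with most Rn45s, gave a log2 fold change of 0.27.

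Levels per length placed the carriers first and Ppif last in both groups. In the control libraries mean RPKM was 267 ± 17.9 for Slc25a5, 241 ± 12.7 for Slc25a4, 133 ± 6.46 for Vdac2, 104 ± 6.84 for Vdac1, 89.2 ± 10.5 for Tspo, 88.9 ± 1.97 for Vdac3 and 16.4 ± 0.958 for Ppif (SD, n = 3). The ranges over libraries overlapped between Slc25a5 and Slc25a4, between Vdac1 and Tspo and between Tspo and Vdac3. Within libraries, Slc25a5 lay above Slc25a4 and Vdac1 above Tspo in 3 of 3, and Tspo above Vdac3 in 2 of 3. In the Dia2 libraries the order of mean RPKM was Slc25a4 (290 ± 16.7), Slc25a5 (197 ± 3.44), Tspo (108 ± 6.06), Vdac1 (101 ± 3.82), Vdac2 (83.8 ± 3.62), Vdac3 (73.8 ± 1.1) and Ppif (2.19 ± 0.139). There only Tspo and Vdac1 had overlapping ranges among neighbours in the order, with Tspo the higher in 3 of 3 libraries.

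The 6 partners each lay above at least 95.8% of all tested genes in control RPKM, and Ppif above 73.7%. Relative to Ppif, the RPKM of Vdac1 was 6.27, 6.53 and 6.28 times as high with control siRNA, against 47.3, 44.1 and 47.7 times with Dia2 siRNA. For Slc25a4 these values were 14.4 to 15 and 126 to 139. Ppif was therefore the scarcest RNA of the set in both groups. Its distance to each partner was wider with Dia2 siRNA, also to those that fell. This wider distance restates the decrease for which Ppif was chosen and supports nothing further.

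The other cyclophilins differed less than Ppif in size. Ppif was chosen for its large decrease, so this comparison was fixed by that choice and supports nothing further. Of 14 tested, 2 rose, 7 fell and 5 did not pass (median log2 fold change -0.14), beside 29.3% higher and 29.9% lower over all genes. The lowest was Ppil1, a spliceosomal cyclophilin, which fell by 0.60 on the log2 scale, and none fell 2-fold. Ppia, the abundant cytosolic cyclophilin A, fell from 372 ± 7.52 to 332 ± 3.51 CPM (-0.17). Ppid, cyclophilin 40, despite its symbol not the mitochondrial protein, did not pass (-0.06, adjusted p = 0.475). Ppic, cyclophilin C of the secretory pathway, rose from 124 ± 5.78 to 175 ± 6.16 CPM (0.50).

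Regulators of the pore and proteins of the outer membrane fell in 14 and rose in 4 of 24 tested genes (median log2 fold change -0.22). Over all genes 29.9% were lower and 29.3% higher. Hk2, a hexokinase that binds porins, stood at 69.6, 61.1 and 63.1 CPM in the control and 31.1, 29.7 and 31.5 CPM in the Dia2 libraries, a 2.1-fold decrease (adjusted p = 3.57e-08). Hk1, the other porin-binding hexokinase, did not pass (232 ± 18.4 and 241 ± 4.02 CPM, adjusted p = 0.464). Tomm70, an import receptor, fell by 0.94 on the log2 scale. The death effectors Bax (-0.35) and Bak1 (-0.22) fell slightly, whereas Bcl2, which opposes them, rose from 20.8 ± 1.44 to 40.3 ± 0.741 CPM (0.95). Other genes of this family in the list went both ways. Bcl2l1 (-0.435), an opponent like Bcl2, and the activator Bid (-0.52) fell, and the activator Bcl2l11 rose (0.38). Mcl1, a further opponent, and Bok did not pass. Ckmt1, the mitochondrial creatine kinase of the space between the membranes, rose 11.8-fold from a low 0.384 ± 0.0255 to 4.49 ± 0.412 CPM.

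ATP synthase genes were lower in 11 of 18 and higher in 1 (median -0.19), beside 29.9% lower and 29.3% higher over all genes. The 1 higher call was lost in 11 of 17 alternative fits. Atp5pb, the b subunit of the peripheral stalk (listed under its older symbol Atp5f1), stood apart at 191, 191 and 198 CPM in the control and 43.4, 39.5 and 36.5 CPM in the Dia2 libraries. This is a 4.86-fold decrease (-2.28 ± 0.06, adjusted p = 9.65e-11). Atp5f1b, the catalytic beta subunit, fell by 0.61 on the log2 scale, Atp5mk by 0.49 and Atp5mc1, a gene for the c ring, by 0.47. Atp5po encodes the stalk subunit OSCP, which cyclophilin D binds, and was included here for that role. It fell from 144 ± 9.33 to 126 ± 1.17 CPM (-0.20).

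Of 42 other mitochondrial carriers tested, 11 were higher and 19 lower (median -0.09), beside 29.3% higher and 29.9% lower over all genes. Without Dia2 replicate 3 the higher count was 7. Slc25a3, the phosphate carrier, fell from 577 ± 17.5 to 501 ± 5.69 CPM (-0.20). Slc25a15, the ornithine carrier, fell by 0.94 on the log2 scale. Slc25a27 (1.06) and Slc25a35 (0.86) rose from near 1 CPM, and the call of Slc25a34 (1.08), at 0.115 and 0.25 CPM, was lost in 12 of 17 alternative fits. Of 15 genes of mitochondrial calcium handling 4 were higher and 6 lower (median -0.12), beside the same shares over all genes. The uniporter Mcu did not pass (50.9 ± 1.67 and 49.6 ± 1.48 CPM, adjusted p = 0.561), Micu3, a uniporter regulator, fell by 0.80, and Pdzd8, a tether of mitochondria to the endoplasmic reticulum, rose by 0.46.

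Of 9 genes tested around Tspo and steroid synthesis, 1 was higher and 4 lower (median -0.12), beside 29.3% higher and 29.9% lower over all genes. The higher count was 0 to 2 when each library was left out in turn. Dbi, whose product is the acyl-CoA binding protein that is also a Tspo ligand, fell from 129 ± 2.38 to 96.5 ± 2.06 CPM (-0.42). Fdxr and Stard3, which encode ferredoxin reductase and a cholesterol transporter of late endosomes, fell by 1.06 and 0.90 on the log2 scale. Cyp11a1, which starts steroid synthesis, stood at 0.083 CPM in the control and 0.0297 CPM in the Dia2 libraries, near the floor, and was not tested. Of 19 genes of mitochondrial biogenesis, dynamics and content 2 were higher and 11 lower (median -0.20), beside the same shares over all genes. Without Dia2 replicate 3 the higher count was 1. Tfam, which packages mitochondrial DNA, fell from 52.3 ± 1.81 to 36.6 ± 0.283 CPM (-0.52), whereas Cs, the citrate synthase often used as a measure of mitochondrial content, rose from 337 ± 5.38 to 403 ± 4.62 CPM (0.26). No set test was made, and the 13 mitochondrially encoded mRNAs were not analysed here.

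**Figure D5:**
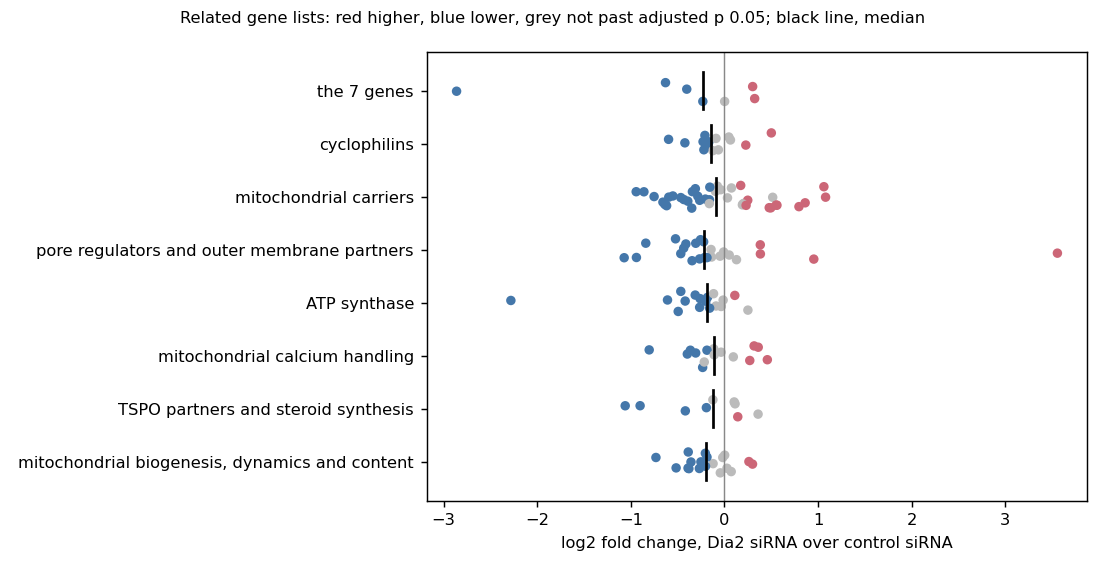
Log2 fold change of the tested genes of 7 related lists and of the 7 genes themselves; each point is a gene, the black line the median. Ppif at -2.86 and Atp5pb at -2.28 lie far to the left of the other genes, and Ckmt1 at 3.56 far to the right.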

How the data were processed

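RNA of 6 libraries (3 per siRNA group, from the titles) was analysed from 1 table. Per the file headers the authors deposited a gene count and an RPKM per gene and library, with a gene length. The submitters' processing notes name bcl2fastq, TopHat2 2.0.6 and HTSeq, with no role or order, and the human builds hg19 and GRCh37. All 7 genes overlapped the mouse gene of their symbol in GENCODE M21, so coordinates were read as GRCm38. No source used here gives the annotation or strand setting. The deposited RPKM values equal count over length and 1 total per library.

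Counts were filtered with filterByExpr (10 per library, 15 in total), scaled with TMM and tested across 14151 genes with edgeR 4.0.16 (quasi-likelihood, robust; R 4.3.3), with Benjamini-Hochberg adjustment at 0.05. The SE is the log2 fold change over the square root of F. RPKM ratios were tested by exact permutation. Alternatives used limma 3.58.1, DESeq2 1.42.0, other scalings, filters and left-out libraries. The script was tested on simulated data. Each ± is an SD over libraries or this SE, and reads carry no molecular identifiers.

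Members and lists were chosen with earlier results of these data known. Genes named are the 7 members, Diaph3, the 5 profiles nearest to Ppif (pseudocount 0.5 CPM, mean of at least 2 CPM), up to 4 called genes with the largest change per list, and Ppia, Ppid, Slc25a3, Slc25a31, Hk1, Hk2, Bax, Bak1, Bcl2, Mcu, Dbi, Tfam and Cs. Atp5po and the neighbours of Ppif were added by role or place, after their values were seen. So were Cxcl12, Itgb1, Cd14, Csf1r, Bcl2l1, Bid, Bcl2l11, Mcl1 and Bok. Some symbols are current forms of older ones in the table (Mcu is Ccdc109a there). Of 5 marker lists, the endothelial (1 of 3 tested lower, 0 higher) and erythroid (0 of 2 either way) ones touched no result.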

Additional observations from a re-analysis of the deposited data

How the results depend on the processing

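The 5 partner genes that passed kept their direction and their side of the threshold in all 17 alternative fits. Vdac1 passed in none, and its sign varied (-0.02 to 0.04). Log2 fold changes ranged from -2.90 to -2.83 for Ppif, -0.65 to -0.59 for Vdac2, -0.26 to -0.20 for Vdac3, 0.28 to 0.34 for Slc25a4, -0.44 to -0.37 for Slc25a5 and 0.26 to 0.37 for Tspo, and the highest adjusted p of the partners that passed was 0.00758, for Vdac3. All genes called ranged from 3651 to 4542 higher and 3675 to 4681 lower. The fit without control replicate 3 and Dia2 replicate 1 was chosen after seeing the data. The replicate numbers are shared by the groups, but deviations of same-numbered libraries correlated at -0.0844, -0.0166 and -0.193, so the numbers were not taken as pairs. With the replicate number as a block, Ppif was at -2.86, Vdac2 at -0.63, Slc25a4 at 0.30, Slc25a5 at -0.40 and Tspo at 0.33, and 3876 genes were higher and 3894 lower. Among list genes, Fdx1 lost its call with the block (Fdx1 log2 fold change -0.19, adjusted p = 0.0505), and the carriers list had 7 in place of 11 higher without Dia2 replicate 3. The differences in the ratio of Slc25a4 to Slc25a5 ranged from 0.68 to 0.74 on the log2 scale with each library left out in turn.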
